A study of Mus musculus with 27 samples.

Results

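Microglia of antibiotic-treated mice were compared 7 days after intracerebral hemorrhage (ICH) and after sham surgery, with 3 libraries a side, 6 of the 27 libraries in all. The 6 libraries were taken by their labels. The ABX ICH day 7 group is wild-type (WT) mice given an antibiotic cocktail (ABX) and an injection of collagenase, an enzyme that breaks down vessel walls and causes a bleed, sampled at day 7. The ABX sham group is WT mice given the same antibiotic cocktail and an injection of phosphate-buffered saline (PBS), also labelled day 7. Both groups therefore share the antibiotic treatment, and the ages of the mice and the contents of the cocktail are not given in the sources used here. The study addressed the place of gut microbes in the microglial response to ICH and had the same design in specific pathogen-free (SPF) and germ-free (GF) mice, each with ICH day 3, ICH day 7 and sham groups of 3 libraries. Microglia were sorted by flow cytometry from tissue around the hematoma, and libraries were made from full-length cDNA with a kit for small RNA inputs. No label says which libraries came from separate animals, so p-values measure the spread between libraries, which may be technical. In edgeR that spread was estimated from all 27 libraries, not from the 6 alone.

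Microglia are the resident macrophages of the brain parenchyma. Near a hematoma they take up red cells and cell debris, store the iron released from heme, and can leave their resting state for one called disease-associated, known from models of neurodegeneration, in which genes of lipid handling, lysosomes and phagocytosis are raised. Signals from gut bacteria, short-chain fatty acids among them, are known to affect how microglia mature and respond.

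Levels are given in CPM, counts scaled to library size by TMM, in the order of replicates 1, 2 and 3 of each group. A gene is said to rise or fall when its adjusted p from edgeR's quasi-likelihood test, corrected over 17573 genes, is below 0.05. Log2 fold changes are ABX ICH day 7 over ABX sham and are followed by their SE. In RNA from bulk samples, fewer cells of a type and less RNA per cell cannot be told apart.

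The libraries of the 2 groups differed in more than single genes. The ABX ICH day 7 libraries held 44279690, 65806820 and 59203787 counts and the ABX sham libraries 68739877, 51027927 and 44568670, so depth overlapped. Genes with at least 1 count numbered 10184, 10997 and 14221 in ABX ICH day 7, against 14979, 16291 and 15357 in ABX sham. The means were 11801 ± 2135 in ABX ICH day 7 and 15542 ± 675 in ABX sham (SD, n = 3 each, two-sided exact permutation p = 0.1, the smallest that 3 against 3 can give). The GC trend is the median log2 CPM, centred on each gene's mean over all 27 libraries, of the highest GC quintile of abundant genes (mean of at least 100 CPM) minus that of the lowest. It was −0.68, −1.02 and −0.67 in ABX ICH day 7, against 0.16, 0.32 and 0.02 in ABX sham. Mitochondrial transcripts made up 1.94, 3.52 and 3.42% of counts in ABX ICH day 7, against 1.01, 1.43 and 1.54% in ABX sham. All 3 measures separated the groups without overlap, and each gave the same exact permutation p of 0.1. ABX ICH day 7 replicate 3 stood nearest to sham in detected genes and replicate 1 in mitochondrial share. The TMM factors also separated the groups, at 0.476, 0.843 and 0.644 in ABX ICH day 7 and 1.16, 1.15 and 1.29 in ABX sham. A lower factor raises CPM, so fold changes of ICH over sham stand higher here than shares of raw counts would give. This holds for mitochondrial genes too. Spearman correlations between replicates over all tested genes were 0.713 to 0.721 in ABX ICH day 7 and 0.834 to 0.878 in ABX sham.

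**Figure D1:**
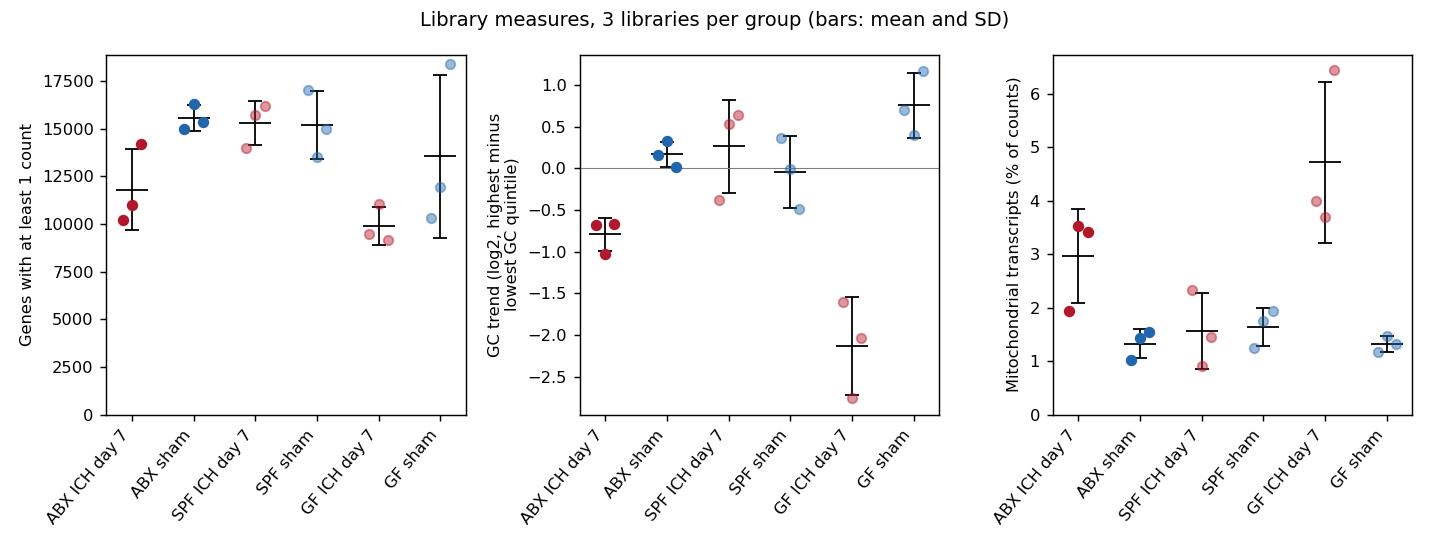
Detected genes (left), GC trend (middle, log2) and mitochondrial transcripts in percent of counts (right) in each library of the ABX, SPF and GF day 7 and sham groups. Points are libraries, horizontal bars the means and error bars the SD, with 3 libraries per group. The ABX ICH day 7 libraries held 10184 to 14221 detected genes, all below the 14979 to 16291 of ABX sham, and their GC trends of −1.02 to −0.67 all lay below 0.

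The cell type label was checked against 12 genes that identify microglia. Their summed level was 57438 to 111698 CPM in ABX ICH day 7 and 53977 to 63433 CPM in ABX sham, and none of the 12 rose or fell. Markers of infiltrating monocytes, by contrast, summed to 18.8 to 1127 CPM in ABX ICH day 7 and 16.6 to 20.4 CPM in ABX sham. Ccr2, the receptor that draws monocytes into tissue, was at 3.03, 133 and 674 CPM in ABX ICH day 7, against 1.83, 1.43 and 7.45 CPM in ABX sham (log2 fold change 6.24 ± 1.61, edgeR adjusted p = 0.06). ABX ICH day 7 replicate 1 was thus at sham level for monocyte markers, and replicates 2 and 3 were not. All 12 monocyte markers missed the threshold, with a median log2 fold change of 4.06. Markers of border-associated macrophages summed to 2.13 to 215 CPM in ABX ICH day 7 and 4.75 to 26.2 CPM in ABX sham, with 0 of 10 called. T and NK cell markers summed to 18.5 to 333 CPM in ABX ICH day 7 and 7.74 to 21.8 CPM in ABX sham. Of the neutrophil markers, Ly6g, Mpo and Elane were at 0 in all 6 libraries, and the list summed to 131 to 249.4 CPM in ABX ICH day 7 and 84.1 to 180.3 CPM in ABX sham. Erythroid markers, mainly globins, summed to 249.4 to 1102 CPM in ABX ICH day 7 and 34.9 to 343 CPM in ABX sham. The dendritic cell gene Cd209a rose, at 0.759, 215 and 399 CPM in ABX ICH day 7 against 0.176, 0.238 and 0.0698 CPM in ABX sham, so its rise rests on replicates 2 and 3 (log2 fold change 10.29 ± 2.33, edgeR adjusted p = 0.0318). The call of Cd209a ended without any 1 sham library, with edgeR adjusted p of 0.159 to 0.21, and with DESeq2 size factors and with the 6 libraries alone. Markers of B cells, astrocytes, oligodendrocytes, neurons and endothelial cells had 0 genes called in edgeR, with 0 to 3 per list at an unadjusted p below 0.05. Oligodendrocyte markers summed to 80.7 to 1434 CPM in ABX ICH day 7 and 131 to 173 CPM in ABX sham. Choroid plexus markers, mostly Ttr, summed to 842 to 5618 CPM in ABX ICH day 7 and 2120 to 17347 CPM in ABX sham. The part of other cell types in the results below was not tested. ABX ICH day 7 replicate 1 also had the fewest detected genes of the 6 libraries, 10184, and the lowest TMM factor, 0.476. Its low marker levels are thus less certain.

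In all, 129 genes rose, 0.734% of those tested, and 37 fell, 0.211%, together 166 or 0.945%. Rises were mostly of abundant genes. The genes that rose had a median level of 1031 CPM in ABX ICH day 7 and 178 CPM in ABX sham, a median log2 fold change of 2.32 (1.30 to 14.54), and in 127 of 129 the libraries of the groups did not overlap. The genes that fell had a median level of 2.16 CPM in ABX ICH day 7 and 71.3 CPM in ABX sham, a median log2 fold change of −5.26 (−12.76 to −3.39), and none of the 37 overlapped. Without overlap, 1370 genes (7.8%) stood higher and 3940 (22.4%) lower in ABX ICH day 7, whatever their adjusted p. The median log2 fold change over all tested genes was −0.79, so a change of 0 lies above the typical tested gene. Among the 1656 genes with a mean of at least 100 CPM, fitted alone, the median was 1.04, so a change of 0 lies below the typical abundant gene. Medians of lists of abundant genes are therefore to be read beside 1.04 as well. With DESeq2 size factors in place of TMM the median over all tested genes was −1.19. The split of calls was then 52 rises to 38 falls, 57.8% rises against 77.7%. The counts depended on single libraries: without ABX ICH day 7 replicates 1, 2 and 3 in turn, 75, 137 and 178 genes rose and 6, 13 and 355 fell, and without ABX sham replicates 1, 2 and 3 in turn, 24, 33 and 25 rose and 3, 4 and 2 fell.

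**Figure D2:**
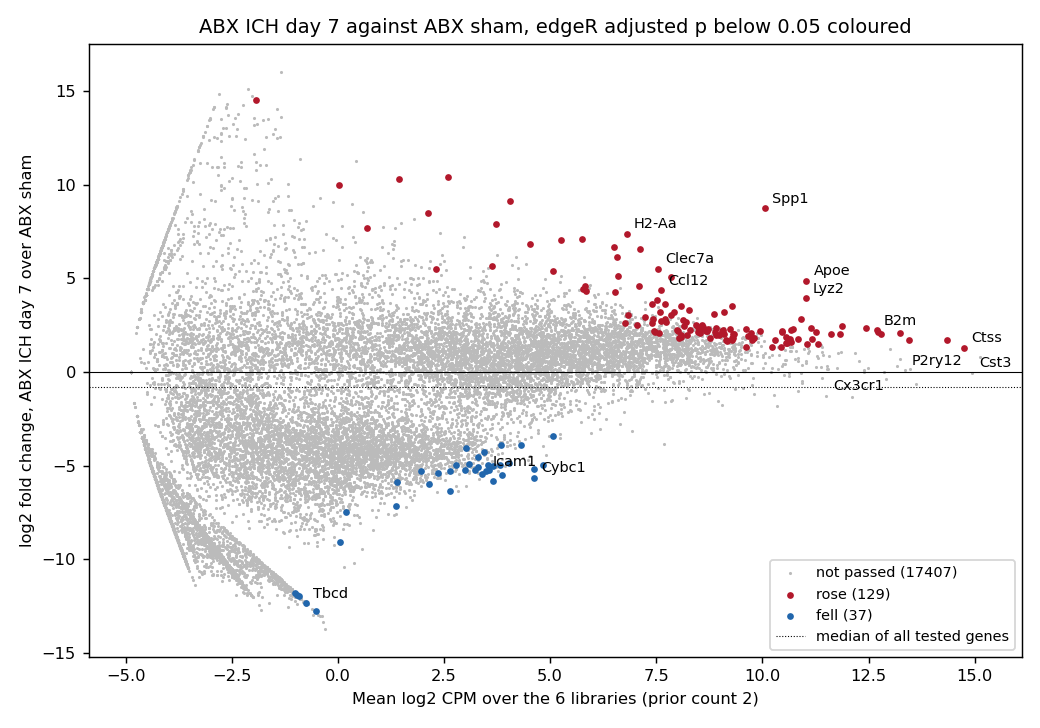
Log2 fold change of ABX ICH day 7 over ABX sham (y axis) against the mean log2 CPM over the 6 libraries (x axis) for the 17573 tested genes. Red points are the 129 genes that rose, blue points the 37 that fell, and the dotted line is the median of −0.79. Rises lie at the right, among abundant genes, and falls in the lower middle.

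Genes of the disease-associated state made up the largest group of rises among the 20 functional lists by count. Of 21 such genes, 12 rose and 0 fell, with a median log2 fold change of 3.35 beside −0.79 for all tested genes. The 15 of them with a mean of at least 100 CPM had a median of 2.84, beside 1.04 for all such abundant genes. Spp1, osteopontin, a secreted phosphoprotein (chr5:104435118-104441050, + strand, mm10), was at 21880, 17497 and 30107 CPM in ABX ICH day 7, against 31.2, 58.3 and 70.1 CPM in ABX sham. The groups stood far apart in every library, and the log2 fold change was 8.77 ± 0.76 (edgeR adjusted p = 5.64e-07). Apoe, the main lipid carrier of the brain (chr7:19696109-19699188, − strand), was at 21812, 4864 and 10888 CPM in ABX ICH day 7, against 357, 459 and 451 CPM in ABX sham. The lowest ICH library, replicate 2, still lay above all sham libraries, and the log2 fold change was 4.89 ± 0.55 (edgeR adjusted p = 2.47e-05). Both calls ended in limma voom with quality weights, at adjusted p = 0.169 for Spp1 and 0.278 for Apoe.

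Other secreted and surface proteins of the list rose as well. Cst7, cystatin F, an inhibitor of lysosomal cathepsins, was at 1279, 823 and 814 CPM in ABX ICH day 7, against 5.56, 8.32 and 14.1 CPM in ABX sham (log2 fold change 6.70 ± 0.89, edgeR adjusted p = 0.000215). Clec7a, dectin-1, a pattern recognition receptor for fungal glucans, was at 1152, 1712 and 1127 CPM in ABX ICH day 7, against 21.9, 46.6 and 18.8 CPM in ABX sham (5.51 ± 0.75, edgeR adjusted p = 0.000256). ABX ICH day 7 replicate 1 was the highest library for Cst7 and lay inside the ICH range for Clec7a. Lilrb4a, an inhibitory receptor of myeloid cells that is not on the list and was named by its size of change, was at 1426, 597 and 675 CPM in ABX ICH day 7, against 6.03, 9.94 and 22.4 CPM in ABX sham (6.14 ± 0.84, edgeR adjusted p = 0.000256). Igf1, a growth factor, was at 607, 192 and 176 CPM in ABX ICH day 7, against 0.516, 2.52 and 5.34 CPM in ABX sham (6.86 ± 1.04, edgeR adjusted p = 0.000801). The tetraspanins Cd63 and Cd9, proteins of endosomal and surface membranes, rose less, by 2.84 ± 0.36 and 2.05 ± 0.30 on the log2 scale (edgeR adjusted p = 0.000155 and 0.000712). Cd63 held 6023, 3911 and 5714 CPM in ABX ICH day 7, against 708, 857 and 628 CPM in ABX sham.

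Other members were less even across libraries. Gpnmb, a glycoprotein of lysosome-rich macrophages, was at 308, 0.614 and 247 CPM in ABX ICH day 7, against 0.428, 0.681 and 0.402 CPM in ABX sham, so replicate 2 was at sham level (8.52 ± 1.97, edgeR adjusted p = 0.0368). Lgals3, galectin-3, was at 257, 391 and 368 CPM in ABX ICH day 7, against 2.95, 39.9 and 7.89 CPM in ABX sham (4.32 ± 1.02, edgeR adjusted p = 0.0409). Trem2, the lipid receptor on which the disease-associated state depends in mouse models, did not pass, with 2188, 771 and 2373 CPM in ABX ICH day 7 and 2486, 2775 and 2070 CPM in ABX sham (−0.46 ± 0.41, edgeR adjusted p = 0.454). Leaving out each of the 6 libraries in turn left 9 to 12 of the 21 genes rising. The calls of the list members Spp1, Apoe, Cst7, Clec7a, Igf1, Cd63, Ctsb and Ctsl, and that of Lilrb4a, held in all 6 of these fits.

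**Figure D3:**
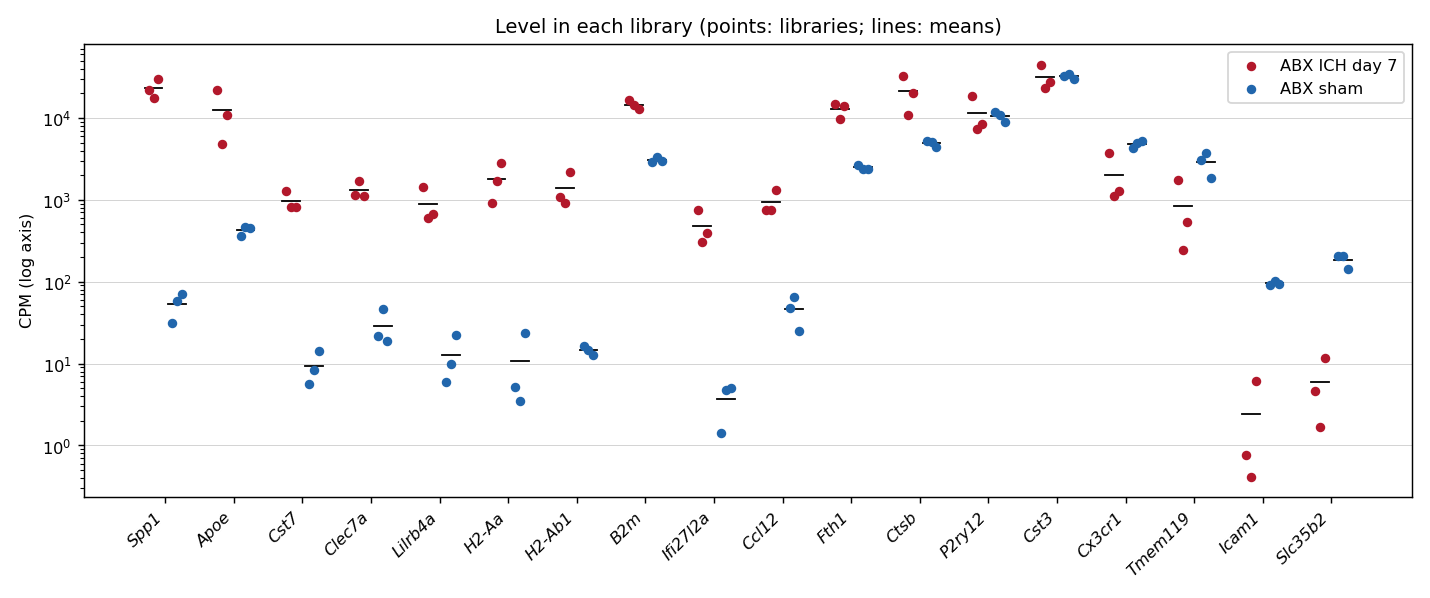
CPM on a log axis of 18 genes in each library of ABX ICH day 7 (red) and ABX sham (blue). Points are libraries in the order of replicates 1, 2 and 3 and horizontal lines the group means. Spp1 spans 17497 to 30107 CPM in ABX ICH day 7 and 31.2 to 70.1 CPM in ABX sham, while the groups overlap for P2ry12 and Cst3.

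Of 18 genes that mark resting microglia 0 rose and 0 fell in edgeR, and likewise in DESeq2 and limma voom, with 4 at an unadjusted p below 0.05 in edgeR and a median log2 fold change of 0.13 (−1.79 to 1.37). That median lies above the −0.79 of all tested genes. In the fit of genes with a mean of at least 100 CPM, 17 of the 18 had a median of 0.15, below the 1.04 of all such genes, and 1 rose. P2ry12, the ADP receptor that guides microglial processes, was at 18484, 7226 and 8431 CPM in ABX ICH day 7, against 11776, 10884 and 8983 CPM in ABX sham (0.11 ± 0.35, edgeR adjusted p = 0.872). Cx3cr1, the receptor for neuronal fractalkine, was at 3681, 1117 and 1287 CPM in ABX ICH day 7, against 4279, 4947 and 5236 CPM in ABX sham (−1.25 ± 0.45, edgeR adjusted p = 0.164). The groups did not overlap for Cx3cr1, but its change missed the threshold. Tmem119, a microglial surface protein, was at 1723, 245 and 543 CPM in ABX ICH day 7, against 3097, 3707 and 1870 CPM in ABX sham (−1.79 ± 0.69, edgeR adjusted p = 0.189). Cst3, cystatin C, had a log2 fold change of −0.02 ± 0.26 (edgeR adjusted p = 0.992). Under voom, and without the libraries under 12000 detected genes, the median of the list was −0.37 and −0.52. The median of all tested genes was −1.49 in each of these fits.

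Among genes of antigen presentation, most calls were in the class II pathway. MHC class II molecules load peptides from the endosome, with Cd74, the invariant chain, as chaperone and cathepsin S (Ctss) as the protease that removes it. Of 12 class II genes 5 rose and 0 fell. Their median log2 fold change was 1.73, beside 1.04 for all genes with a mean of at least 100 CPM. The promoters of the chain genes H2-Aa and H2-Eb1 are shown because both genes rose together, with the 250 bases before each start as RefSeq gives them for GRCm38.p6. Capitals mark the X box letters CTNGCAAC and the Y box letters CTGATTGG, the elements to which the class II regulators are known to bind, in the sense direction. The X box letters were chosen with these promoters in view.
H2-Aa, chr17:34287824-34288073, − strand: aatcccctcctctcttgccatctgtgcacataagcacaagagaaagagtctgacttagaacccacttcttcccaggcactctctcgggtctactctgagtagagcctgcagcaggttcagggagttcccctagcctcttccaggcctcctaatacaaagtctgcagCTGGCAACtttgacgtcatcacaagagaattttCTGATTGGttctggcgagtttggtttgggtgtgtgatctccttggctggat
H2-Eb1, chr17:34305617-34305866, + strand: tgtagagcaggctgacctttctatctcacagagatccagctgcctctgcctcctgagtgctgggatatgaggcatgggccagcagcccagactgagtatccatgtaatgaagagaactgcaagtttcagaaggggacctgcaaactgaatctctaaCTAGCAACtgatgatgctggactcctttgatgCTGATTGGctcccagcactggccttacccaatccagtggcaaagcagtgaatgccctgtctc
Searched on both strands in 250-base windows, the Y box letters occur in 3 of 8 class II genes in the RefSeq table and in 3.83% of 32851 promoters, and the X box letters in 2 of 8 and in 2.84%. Both together occur in 0.155% of all promoters. A match is a run of letters and was not tested as a binding site.

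H2-Aa, the alpha chain of I-A (chr17:34282744-34287823, − strand), was at 926, 1714 and 2792 CPM in ABX ICH day 7, against 5.17, 3.52 and 23.7 CPM in ABX sham (log2 fold change 7.39 ± 1.25, edgeR adjusted p = 0.0034). H2-Ab1, its beta chain partner (chr17:34257689-34269419, + strand), was at 1086, 924 and 2188 CPM in ABX ICH day 7, against 16.6, 14.8 and 12.8 CPM in ABX sham (6.57 ± 1.01, edgeR adjusted p = 0.000962). The beta chain of I-E, H2-Eb1, was at 734, 725 and 639 CPM in ABX ICH day 7, against 2.61, 2.48 and 10.4 CPM in ABX sham (7.08 ± 1.23, edgeR adjusted p = 0.00449). All 3 chain genes were high in each ICH library. Cd74 was at 1761, 471 and 2178 CPM in ABX ICH day 7, against 51, 41.1 and 40.3 CPM in ABX sham (5.06 ± 0.93, edgeR adjusted p = 0.00597). Ctss rose by 1.30 ± 0.27 on the log2 scale, the smallest of the 129 rises (edgeR adjusted p = 0.0182). Ciita, the master regulator of class II genes, was at 0 in all ABX ICH day 7 libraries and at most 0.0698 CPM in ABX sham. Leaving out a sham library left 1 to 3 of the 5 calls and leaving out an ICH library 4 or 5. H2-Ab1 held in all 6 of these fits, and without sham replicate 1 the adjusted p of H2-Aa was 0.0552 and that of H2-Eb1 was above 0.05 as well.

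The class I pathway presents peptides from the cytosol. Its genes had a median of 0.93, beside 1.04 for all genes with a mean of at least 100 CPM. In edgeR 1 of 23 genes rose and 0 fell. That gene was B2m, beta-2 microglobulin, the light chain of every class I molecule (chr2:122147686-122153083, + strand), at 16397, 14238 and 12911 CPM in ABX ICH day 7, against 2866, 3328 and 2949 CPM in ABX sham. Its log2 fold change was 2.25 ± 0.28 (edgeR adjusted p = 0.000135) and stayed between 2.16 and 2.33 when each library was left out. Its promoter is shown because it holds, in capitals, a match to the interferon-stimulated response element, searched as GAAA, any 2 bases and GAAA, at −139 to −130 from the start.
B2m, chr2:122147437-122147686, + strand: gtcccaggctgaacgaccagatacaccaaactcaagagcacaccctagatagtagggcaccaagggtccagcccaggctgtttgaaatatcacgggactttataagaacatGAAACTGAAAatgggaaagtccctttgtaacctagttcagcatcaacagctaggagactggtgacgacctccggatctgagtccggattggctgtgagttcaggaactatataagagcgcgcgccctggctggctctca
These letters occur on either strand in 2.98% of 32851 RefSeq promoters. The heavy chains H2-D1 and H2-K1 had log2 fold changes of 1.66 ± 0.46 and 1.26 ± 0.42 and did not pass (edgeR adjusted p = 0.0861 and 0.146). Reads of such closely related genes can be split between copies, so their values are less certain. Tap1, which carries peptides into the endoplasmic reticulum, was at 0.664, 0.307 and 1.86 CPM in ABX ICH day 7, against 16.8, 14.8 and 31.5 CPM in ABX sham, without overlap (−4.47 ± 1.55, edgeR adjusted p = 0.159).

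Interferon response genes had the highest median of the functional lists, 4.39, and 22 of 24 had a positive log2 fold change. Only 4 of them passed, Ifi27l2a, Ifitm3, Ifit2 and Rtp4, all as rises. Without overlap, 13 of 24 lay higher, as did 7.8% of all tested genes. Ifi27l2a, an interferon-induced gene, was at 747, 309 and 399 CPM in ABX ICH day 7, against 1.41, 4.71 and 5.01 CPM in ABX sham (7.03 ± 1.28, edgeR adjusted p = 0.00591). Ifitm3, a membrane protein that restricts virus entry, was at 235, 1000 and 986 CPM in ABX ICH day 7, against 36.2, 29.4 and 24.8 CPM in ABX sham (4.62 ± 0.90, edgeR adjusted p = 0.00919). Ifit2 did not overlap between groups but varied widely among the ICH libraries, at 1855, 20.4 and 487 CPM in ABX ICH day 7, against 0.315, 1.23 and 2.67 CPM in ABX sham (9.13 ± 1.95, edgeR adjusted p = 0.0206). Isg15, a ubiquitin-like modifier, was at 0.379, 33.7 and 77.3 CPM in ABX ICH day 7, against 1.08, 1.04 and 2.13 CPM in ABX sham (4.71 ± 2.23, edgeR adjusted p = 0.227). Isg15 in replicate 1 was thus at sham level. Rtp4 was at 272, 286 and 710.4 CPM in ABX ICH day 7, against 22, 23 and 21.2 CPM in ABX sham (4.26 ± 0.92, edgeR adjusted p = 0.022). Leaving out any 1 sham library left 0 of 24 rising, with medians of 4.29 to 4.66, and the highest adjusted p then was 0.0814 for Ifi27l2a and 0.11 for Ifitm3. The interferon element letters given for B2m occur in 10 of the 16 list genes in the RefSeq table.

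Chemokines, the secreted proteins that attract leukocytes, had a median log2 fold change of 4.16, with 4 of 17 rising and 0 falling. Ccl12, a mouse ligand of CCR2, was at 752, 758 and 1321 CPM in ABX ICH day 7, against 47.4, 65.4 and 24.8 CPM in ABX sham (4.36 ± 0.63, edgeR adjusted p = 0.000534). Its rise was even across the ICH libraries and held in each fit that left out 1 library. Ccl4 and Ccl3, which attract monocytes and T cells, rose by 3.83 ± 0.75 and 2.93 ± 0.69 on the log2 scale (edgeR adjusted p = 0.01 and 0.0403). Ccl4 was at 1841, 301 and 428 CPM in ABX ICH day 7, against 61.1, 92.2 and 27.1 CPM in ABX sham. Cxcl16, the ligand of CXCR6, was at 1422, 315 and 683 CPM in ABX ICH day 7, against 133, 106 and 108 CPM in ABX sham (2.80 ± 0.60, edgeR adjusted p = 0.0208). Each of these 3 calls ended when a sham library or ICH replicate 1 was left out, with adjusted p up to 0.132 for Ccl4, 0.241 for Ccl3 and 0.17 for Cxcl16.

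Of 15 cytokine and inflammasome genes 0 rose and 1 fell in edgeR, with a median of 1.13, 4 at an unadjusted p below 0.05. In DESeq2 0 rose and 4 fell, and in limma voom 1 rose and 0 fell. Il1b and Tnf, the classical inflammatory cytokines, were low, Il1b at 0.664, 0.0361 and 3.75 CPM in ABX ICH day 7 against 0, 1.97 and 0 CPM in ABX sham (1.17 ± 1.68, edgeR adjusted p = 0.66). Tnf was at 0.379, 0.469 and 2.34 CPM in ABX ICH day 7, against 7.91, 5.43 and 2.69 CPM in ABX sham (−2.33 ± 2.24, edgeR adjusted p = 0.489). The member that fell was Icam1, an adhesion molecule, described with the falls below. Of 19 Toll-like receptor genes 1 rose and 0 fell, with a median of 0.00. It was Tlr2, the receptor for bacterial lipopeptides, at 2557, 1160 and 1420 CPM in ABX ICH day 7, against 204, 211 and 149.6 CPM in ABX sham (3.19 ± 0.66, edgeR adjusted p = 0.0159, up to 0.146 when a library was left out).

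Of 22 heme and iron genes 2 rose and 0 fell, with a median of 1.08, beside 1.04 for all genes with a mean of at least 100 CPM. The 2 that rose are the ferritin chains, which hold iron in the cytosol. The heavy chain Fth1 was at 14719, 9692 and 14099 CPM in ABX ICH day 7, against 2678, 2366 and 2409 CPM in ABX sham (2.37 ± 0.33, edgeR adjusted p = 0.000323). The light chain Ftl1 was at 21028, 6242 and 19003 CPM in ABX ICH day 7, against 3684, 4881 and 2901 CPM in ABX sham (2.01 ± 0.39, edgeR adjusted p = 0.00894). Neither chain overlapped between groups. Ftl1 has near copies in the genome, of which Ftl1-ps1 and Ftl2-ps rose too, so its counts are less certain, and its call ended in 3 of the 6 fits that left out a library (adjusted p up to 0.11). Hmox1, heme oxygenase 1, was at 474, 5.02 and 227 CPM in ABX ICH day 7, against 32.4, 29.4 and 22.6 CPM in ABX sham, so replicate 2 lay below sham (3.06 ± 1.18, edgeR adjusted p = 0.189).

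Lysosomal genes rose in part: 7 of 26 rose and 0 fell, with a median of 0.91, beside 1.04 for all genes with a mean of at least 100 CPM. The rises were the proteases Ctsb, Ctsl, Ctsc and Ctss, the membrane proteins Lamp2 and Cd63 and the cholesterol carrier Npc2. Ctsb, cathepsin B, was at 32426, 10813 and 19946 CPM in ABX ICH day 7, against 5272, 5092 and 4421 CPM in ABX sham (2.10 ± 0.34, edgeR adjusted p = 0.00198). Ctsl, cathepsin L, was at 8361, 10026 and 8073 CPM in ABX ICH day 7, against 1746, 1603 and 1438 CPM in ABX sham (2.47 ± 0.34, edgeR adjusted p = 0.000323). Lamp2, a main protein of the lysosomal membrane, was at 5427, 3369 and 2743 CPM in ABX ICH day 7, against 887, 764 and 653 CPM in ABX sham (2.32 ± 0.35, edgeR adjusted p = 0.000872). The groups stood apart for all 3 genes, and the 3 calls held whichever library was left out. Npc1, the membrane partner of Npc2, was at 2.85, 1.05 and 13 CPM in ABX ICH day 7, against 63.2, 73.2 and 83.9 CPM in ABX sham (−3.71 ± 1.18, edgeR adjusted p = 0.134).

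Of 23 genes of lipid uptake and cholesterol handling 2 rose, Apoe and Fabp5, and 0 fell. Fabp5, a fatty acid binding protein, was at 193, 143 and 397 CPM in ABX ICH day 7, against 9.59, 4.34 and 3.14 CPM in ABX sham (5.42 ± 0.99, edgeR adjusted p = 0.00591, up to 0.0911 when a library was left out). The list had a median of 1.03, and 7 of its 23 genes lay lower without overlap, 5 higher. Of all tested genes 22.4% lay lower and 7.8% higher in this way. Its median was −1.93 without the libraries under 12000 detected genes, and −0.87 and −2.93 without ABX ICH day 7 replicates 2 and 3 in turn. In the same fits the median of all tested genes was −1.49, −1.73 and −2.79. Of 13 complement genes 1 rose, C3ar1, the receptor for C3a, at 1563, 743 and 886 CPM in ABX ICH day 7 against 417, 348 and 248 CPM in ABX sham (1.66 ± 0.36, edgeR adjusted p = 0.0219, up to 0.232 when a library was left out). Of 16 phagocytosis and Fc receptor genes 1 rose, the scavenger receptor gene Msr1, at 2.89, 201 and 26.6 CPM in ABX ICH day 7 against 0.214, 3.9 and 0.908 CPM in ABX sham (5.52 ± 1.30, edgeR adjusted p = 0.0409, up to 0.241). Msr1 in replicate 1 lay inside the sham range. Psat1, an enzyme of serine synthesis, was at 717, 627 and 418 CPM in ABX ICH day 7, against 18.7, 10.3 and 21.6 CPM in ABX sham (5.12 ± 1.10, edgeR adjusted p = 0.0208, up to 0.153).

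Most transcripts of the mitochondrial genome rose. Of 13 protein-coding genes 8 rose and 0 fell, and all 13 had a positive log2 fold change. The median was 1.92, beside 1.04 for all genes with a mean of at least 100 CPM. mt-Nd1, a subunit of complex I, was at 2071, 3335 and 3890 CPM in ABX ICH day 7, against 532, 709 and 778 CPM in ABX sham (2.20 ± 0.36, edgeR adjusted p = 0.00182). Cytochrome b, mt-Cytb, was at 6596, 4213 and 4874 CPM in ABX ICH day 7, against 1019, 1369 and 1118 CPM in ABX sham (2.16 ± 0.35, edgeR adjusted p = 0.00182). The cytochrome oxidase genes mt-Co1 and mt-Co2 rose by 2.06 ± 0.41 and 2.05 ± 0.37 and the ATP synthase gene mt-Atp8 by 2.17 ± 0.43 on the log2 scale (edgeR adjusted p = 0.0112, 0.00533 and 0.0112). The ribosomal RNAs mt-Rnr1 and mt-Rnr2 rose as well, by 2.15 ± 0.41 and 2.12 ± 0.37 (edgeR adjusted p = 0.00894 and 0.00505). Of the copies that share such reads, the nuclear Gm10925, Gm28437, Gm28661 and Gm29216 were also called. The lower number of detected genes and the lower GC trend of the same libraries move with these rises, and their part was not tested. With offsets for GC content 4 of the 13 rose. Without any 1 sham library 2 of the 13 rose, and with DESeq2 size factors 3. The nuclear genes of oxidative phosphorylation had 0 of 22 called by edgeR in either direction (9 at an unadjusted p below 0.05), 4 by DESeq2 and 1 by limma voom, with a median of 1.07 and 21 of 22 positive. That median is near the 1.04 of all genes with a mean of at least 100 CPM, so it does not set the list apart from abundant genes. Their most abundant members, Atp5b and Atp5a1, had log2 fold changes of 1.34 ± 0.56 and 1.17 ± 0.47 (edgeR adjusted p = 0.205 and 0.198).

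The remaining lists gave few calls. Glycolysis and hypoxia genes had 0 of 20 called by edgeR in either direction (6 at an unadjusted p below 0.05), 7 by DESeq2 and 2 by limma voom, with a median of 0.39, and Ldha, lactate dehydrogenase A, at 1.34 ± 0.47 (edgeR adjusted p = 0.161). Proteasome genes had 0 of 22 called by edgeR (4 at an unadjusted p below 0.05), 2 each by DESeq2 and limma voom, and a median of 1.11. This too is near the 1.04 of all genes with a mean of at least 100 CPM. Their most abundant members Psmc3 and Psmb6 stood at 1.31 ± 0.73 and 1.23 ± 0.73 (edgeR adjusted p = 0.262 and 0.282). Of 24 cell cycle genes 1 rose, Hmgb2, a chromatin protein, at 616, 268 and 403 CPM in ABX ICH day 7 against 65.2, 59 and 87 CPM in ABX sham (2.61 ± 0.62, edgeR adjusted p = 0.0409, up to 0.214 when a library was left out). The list had a median of 2.26. Genes that sense or use short-chain fatty acids had 0 of 11 called by edgeR (4 at an unadjusted p below 0.05), 5 by DESeq2 and 0 by limma voom, with a median of −0.61. The receptor genes Ffar2 and Ffar3 and the transporter gene Slc5a8 were at 0 counts in all 6 libraries, which allows up to 0.142 CPM in the library with the fewest scaled counts, for 3 counts. Hcar2, the receptor for butyrate and ketone bodies, was at 0.948, 98.2 and 15 CPM in ABX ICH day 7, against 5.94, 8.24 and 9.48 CPM in ABX sham (2.27 ± 1.52, edgeR adjusted p = 0.327). Hdac2, a deacetylase that butyrate is known to inhibit, had a log2 fold change of 1.95 ± 1.01 (edgeR adjusted p = 0.244). Hdac3, another, was at 836, 130.2 and 2.99 CPM in ABX ICH day 7, against 54.9, 23.6 and 29.4 CPM in ABX sham, so replicate 3 lay below sham (3.17 ± 1.37, edgeR adjusted p = 0.212). Without the libraries under 12000 detected genes, which leaves replicate 3, its log2 fold change was −3.86 (edgeR adjusted p = 0.00598), and DESeq2 called it higher (adjusted p = 0.0279). Immediate early genes, which also respond to cell isolation, had a median of −3.03 with 0 rising and 1 of 17 falling. It was Fosb, at 0, 0 and 0.105 CPM in ABX ICH day 7 against 22.7, 12.7 and 26.2 CPM in ABX sham (−9.07 ± 2.22, edgeR adjusted p = 0.0474, up to 0.202).

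**Figure D4:**
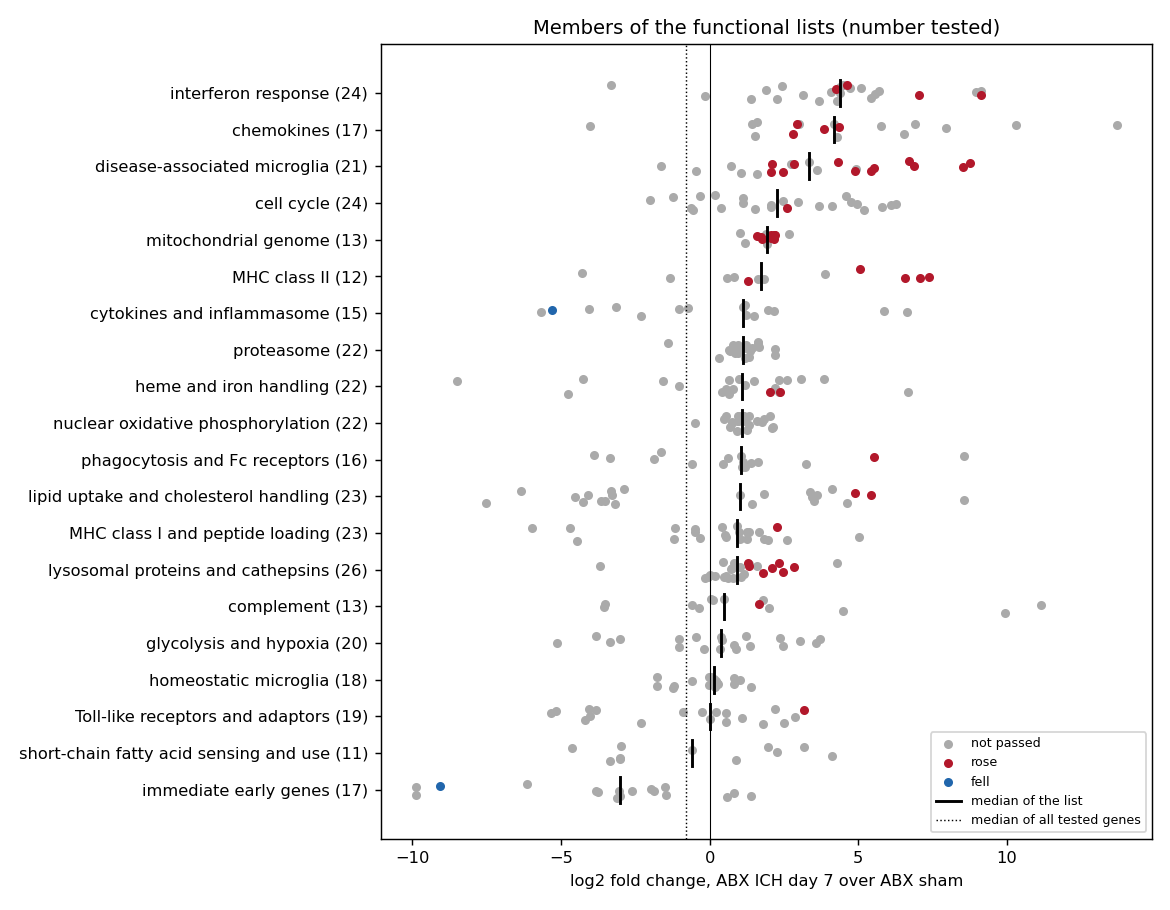
Log2 fold change of ABX ICH day 7 over ABX sham (x axis) of every tested member of the 20 functional lists (rows, with the number tested). Points are genes, red where they rose, blue where they fell and grey where they did not pass, black bars are list medians and the dotted line the median of all tested genes. Interferon, chemokine and disease-associated genes have the highest medians, 4.39, 4.16 and 3.35.

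The genes that fell were longer and richer in GC in the median than those that rose. Their exons were longer, 4908 bases in the median against 2451 for rises and 3486 for all tested genes, and their GC content was higher, 51.8% against 46.3% and 49.0%. In 30 of the 37, ABX ICH day 7 replicate 3 was the highest ICH library, and it is also the ICH library with the most detected genes. In 5 of them all ABX ICH day 7 libraries were at 0, and among all tested genes 621 were above 0 in every ABX sham library and at 0 in every ABX ICH day 7 library, against 22 the other way. Slc35b2, which carries the sulfate donor PAPS into the Golgi (chr17:45563874-45567671, + strand), was at 4.6, 1.66 and 11.8 CPM in ABX ICH day 7, against 205, 204 and 143 CPM in ABX sham (log2 fold change −4.94 ± 0.89, edgeR adjusted p = 0.0055). Ptp4a3, a phosphatase, was at 2.85, 0.758 and 7.61 CPM in ABX ICH day 7, against 117, 143 and 65.4 CPM in ABX sham (−4.86 ± 0.87, edgeR adjusted p = 0.00533). These calls held in all 6 fits that left out a library.

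The calls of the other falls named here were less stable when a library was left out. Icam1, which binds leukocyte integrins (chr9:21015985-21028817, + strand), was at 0.759, 0.415 and 6.12 CPM in ABX ICH day 7, against 92, 103 and 93.5 CPM in ABX sham (−5.30 ± 1.12, edgeR adjusted p = 0.0191). Cybc1, a chaperone of the phagocyte NADPH oxidase (chr11:121222588-121229322, − strand), was at 1.52, 0.505 and 14.3 CPM in ABX ICH day 7, against 344, 248 and 223 CPM in ABX sham (−5.64 ± 1.39, edgeR adjusted p = 0.0492). Spag7 fell by 5.15 ± 1.10, Pacsin2, a protein of membrane bending, by 3.88 ± 0.89, and Fermt3, kindlin-3, which activates integrins, by 3.39 ± 0.82 on the log2 scale (edgeR adjusted p = 0.0206, 0.0359 and 0.0442). Each of these calls ended in at least 5 of the 6 fits that left out a library, with adjusted p up to 0.0958 for Icam1, 0.214 for Cybc1, 0.111 for Spag7, 0.133 for Pacsin2 and 0.187 for Fermt3. Tbcd, a folding cofactor of tubulin, was at 0 in all ABX ICH day 7 libraries and at 16.8, 9.92 and 6.46 CPM in ABX sham, at least 120-fold lower with 3 counts per library in place of 0 (edgeR adjusted p = 0.013, up to 0.0652).

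The fit was repeated without the libraries under 12000 detected genes, and with offsets for GC content. The first removes ABX ICH day 7 replicates 1 and 2 and leaves replicate 3, assumed to vary like the other groups. It also removes GF ICH day 7 replicates 1, 2 and 3 and GF sham replicates 1 and 2, so the spread and the tested genes change too. Replicate 3 held 14221 detected genes, still fewer than any ABX sham library, so that fit does not remove the difference in detected genes. Its median log2 fold change over all tested genes was −1.49. With offsets for GC content 127 rose and 31 fell, 97 and 28 of them among the 129 rises and 37 falls. Across the 1649 genes of at least 100 CPM with a known GC content, GC content and log2 fold change had a Spearman correlation of −0.28, a description across genes, which are not independent, and of 0.06 with the offsets. All 129 rises kept a positive log2 fold change, and all 37 falls a negative one, in each fit in which they were tested. Of the 50 genes named by rule that rose or fell, 11 kept their call in every alternative run: Lilrb4a, H2-Ab1, Cst7, Cd63, Clec7a, B2m, Ccl12, Fth1, Ctsl, Lamp2 and mt-Cytb.

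The day 7 response of ABX mice was then set beside that of SPF mice, which have an intact microbiota. No gene differed in response by the edgeR interaction test, 0% higher and 0% lower, with a smallest adjusted p of 0.369 and 2236 genes at an unadjusted p below 0.05. DESeq2 called 1935 genes on the same contrast and limma voom 12. The groups did not share libraries. In SPF mice 14 genes rose, 0.0797% of those tested, and 0 fell, and all 14 are among the 129 that rose in ABX mice, which is 100% of the first list and 10.9% of the second. They are Spp1, Apoe, Cst7, Cd63, Clec7a, Igf1, Fabp5, Ctsb, H2-Ab1, Lilrb4a, Ifitm3, Lyz2, Ftl1 and Ftl1-ps1. Of the 129 ABX rises, 119 had a positive log2 fold change in SPF mice, with a median of 0.76 there, beside −0.03 for all tested genes, and 2.32 in ABX mice. Apoe had a log2 fold change of 4.89 ± 0.55 in ABX and 6.10 ± 0.58 in SPF mice, a difference of −1.21 ± 0.66 (edgeR adjusted p = 0.422). B2m had 2.25 ± 0.28 in ABX and 0.96 ± 0.27 in SPF mice, a difference of 1.29 ± 0.38 (edgeR adjusted p = 0.369). The 5 genes with the smallest adjusted p of that difference, 0.369 each, were mt-Nd1, Tbcd, mt-Rnr1, Tram1 and mt-Rnr2. Tram1, a translocon protein of the endoplasmic reticulum, had 2.33 ± 0.45 in ABX and −0.30 ± 0.43 in SPF mice, and mt-Nd1 2.20 ± 0.36 and 0.00 ± 0.34. A p that misses the threshold does not show that the responses are alike. SPF ICH day 7 libraries held 15302 ± 1162 detected genes and SPF sham libraries 15185 ± 1767 (SD, n = 3 each).

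Set beside GF mice, which have no bacteria at all, 702 genes (3.99%) had a higher and 52 (0.296%) a lower response in ABX mice. Of the 702, 701 had a negative log2 fold change in GF mice, with a median of −8.55 there and 1.33 in ABX mice, 124 were at 0 in all GF ICH day 7 libraries, and 19 are among the ABX rises. Apoe had a log2 fold change of 4.89 ± 0.55 in ABX and −0.07 ± 0.46 in GF mice, a difference of 4.96 ± 0.69 (edgeR adjusted p = 0.000319). Fth1 had 2.37 ± 0.33 in ABX and 0.36 ± 0.32 in GF mice (difference 2.01 ± 0.45, edgeR adjusted p = 0.013). Ctsb had 2.10 ± 0.34 in ABX and −0.84 ± 0.33 in GF mice (difference 2.93 ± 0.47, edgeR adjusted p = 0.00137). Spp1 and B2m did not pass, with 8.77 ± 0.76 in ABX and 7.64 ± 0.73 in GF mice for Spp1 (edgeR adjusted p = 0.44), and 2.25 ± 0.28 and 2.28 ± 0.28 for B2m (edgeR adjusted p = 1). The GF ICH day 7 libraries held 9906 ± 997 detected genes and had a GC trend of −2.13 ± 0.585, and GF sham libraries 13553 ± 4280 and 0.755 ± 0.390 (SD, n = 3 each), and the part of either in the differences was not tested. Under limma voom 17 genes differed. Without ABX sham replicates 1, 2 and 3 in turn 153, 190 and 138 genes differed, and without GF ICH day 7 replicate 2 1208. Of the 129 ABX rises 77 also rose in GF mice, where 1.7% of tested genes rose, which is 59.7% of the ABX list and 25.8% of the GF list. Of the 37 ABX falls 25 also fell there, where 12.7% of tested genes fell, which is 67.6% of the ABX list and 1.12% of the GF list.

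**Figure D5:**
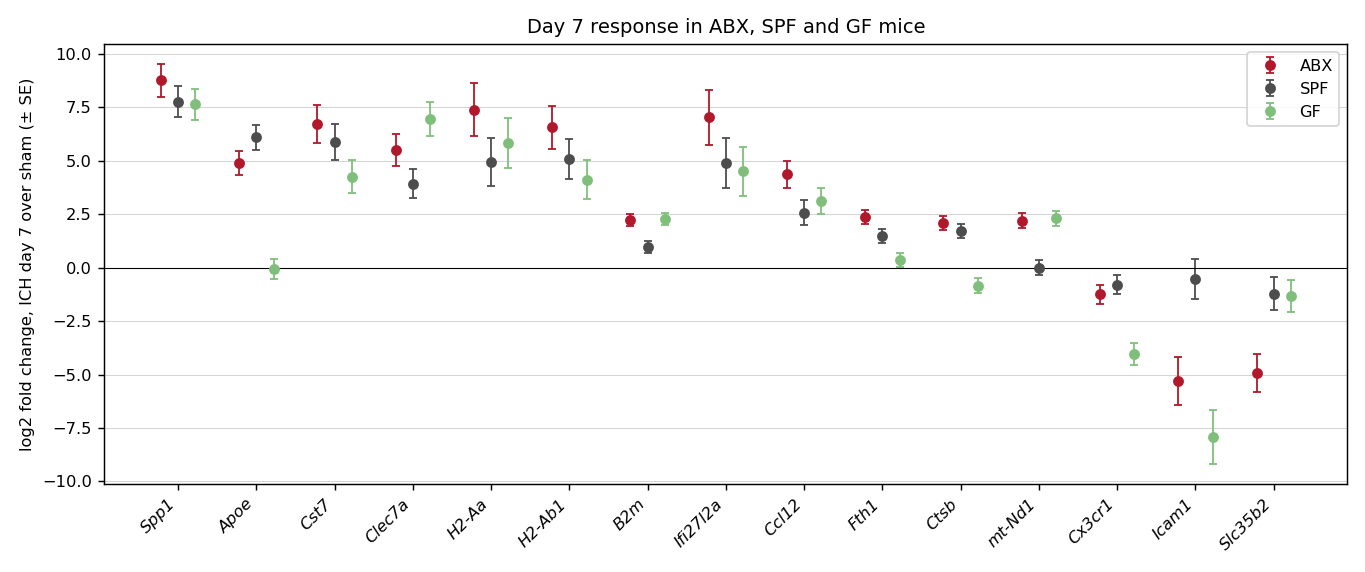
Log2 fold change of ICH day 7 over sham, with SE, of 15 genes in ABX (red), SPF (grey) and GF mice (green), 3 libraries per group. Spp1 stands at 8.77, 7.76 and 7.64, while Apoe is at 4.89 and 6.10 in ABX and SPF mice and at −0.07 in GF mice.

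Values at day 3 after ICH, compared with the same ABX sham libraries, are given side by side because the controls are shared. Spp1 had a log2 fold change of 6.09 ± 0.68 at day 3 and 8.77 ± 0.76 at day 7. Clec7a had 1.92 ± 0.64 at day 3 and 5.51 ± 0.75 at day 7, B2m −0.48 ± 0.27 and 2.25 ± 0.28, and P2ry12 −2.44 ± 0.37 and 0.11 ± 0.35. At day 3 Clec7a and B2m did not pass (edgeR adjusted p = 0.591 and 0.614), and P2ry12 fell (edgeR adjusted p = 0.00206). Fth1 had 2.26 ± 0.33 at day 3 and 2.37 ± 0.33 at day 7. Spp1 and Fth1 rose at day 3 (edgeR adjusted p = 7.01e-05 and 0.00197). The ABX ICH day 3 libraries held 14774 ± 568 detected genes (SD, n = 3). Their GC trend was 0.844 ± 0.278, against −0.791 ± 0.201 in ABX ICH day 7 (SD, n = 3 each), and its part was not tested.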

How the data were processed

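RNA of sorted microglia was measured in 27 libraries of 9 groups. Per the labels' protocols, low-input cDNA libraries were sequenced in pairs of 150 bases. Per the submitters' processing notes, the tools were cutadapt 1.9, HISAT2 2.0.4, StringTie 1.3.4d and edgeR, on mm10. The annotation release, the strand setting and how mates were counted are not given in the sources used here. The authors deposited 1 table of whole-number counts per gene for the 27 libraries. Low counts pile up at multiples of 4 (5102 values equal 3, 18708 equal 4 and 3988 equal 5), so small counts are not independent molecules, and intervals and floors cover counting error only. Symbols and coordinates come from GENCODE M21, which names 52073 of 56691 identifiers, and the others hold 1.27% of counts.

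Genes were kept by filterByExpr (17573) and libraries scaled by TMM. The factors were 0.476 to 0.843 in ABX ICH day 7 and 1.15 to 1.29 in ABX sham. edgeR 4.0.16 in R 4.3.3 fitted the 9 group means in 1 robust quasi-likelihood model, with Benjamini-Hochberg adjustment at 0.05, after a test on simulated data. Differences of responses are interaction contrasts. Group measures of 3 libraries were compared by an exact permutation test. Log2 CPM used a prior count of 2. A fold against a group at 0 used 3 counts per library.

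The members, the 20 functional and 13 marker lists, the tests and the naming rule were chosen with earlier results of these data known. The rule names, among protein-coding genes other than predicted ones whose groups do not overlap and whose log2 CPM averages 4 or more, the 12 largest rises and 12 largest falls (6 falls met it), up to 5 called members of each functional list (otherwise the 2 most abundant), the 2 most abundant of each marker list, 15 genes always, and the 5 smallest adjusted p of each difference. Cd9, Gpnmb, Lgals3, Ciita, H2-D1, H2-K1, Tap1, Isg15, Npc1, Npc2, Ctsc, Lyz2, the pseudogenes and the genes of the closing observations were chosen after their values were seen. Some genes that the rule names are not reported here. Alternatives were DESeq2 1.42.0, limma 3.58.1 voom, DESeq2 size factors, no filter, a replicate block, GC offsets (a spline with 6 degrees of freedom), a mean of at least 100 CPM, the 6 libraries alone, and leaving out libraries.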

Additional observations from a re-analysis of the deposited data

Results flagged for a closer look

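The day 7 response of ABX mice differed from that of GF mice by the edgeR interaction test. The response was higher in ABX mice for 702 genes and lower for 52, which need not be a rise or fall in ABX mice. Among genes named by rule, the difference, in log2 units as ABX minus GF, was 4.70 for Pacsin2, 4.96 for Apoe, 3.49 for Cxcl16, 2.01 for Fth1, 2.80 for Ftl1, 2.93 for Ctsb, 3.44 for Atp5b, 9.97 for Mbp and 2.79 for Cx3cr1. Pacsin2 fell in ABX mice, by 3.88, and had −8.57 in GF mice, and Cx3cr1 had −1.25 and −4.04. Mbp, an oligodendrocyte marker, had 1.67 in ABX and −8.31 in GF mice. Among the genes with the smallest adjusted p were Bfar at 10.18, Liph at 11.51, Sp110 at 11.02 and Sqstm1 at 10.12. In ABX mice none of these last genes was called, with log2 fold changes of 1.62, 1.83, 3.11 and 0.84. In GF mice they had −8.56, −9.68, −7.90 and −9.28. The GF ICH day 7 libraries held 9906 ± 997 detected genes, against 11801 ± 2135 in ABX ICH day 7 (SD, n = 3 each).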

How the results depend on the processing

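Genes called between ABX ICH day 7 and ABX sham numbered 166 (129 higher, 37 lower). They were 4890 (1052 and 3838) with DESeq2, 581 (384 and 197) with limma voom, 90 (52 and 38) with DESeq2 size factors, 56 (48 and 8) without a filter, 105 (90 and 15) with the replicate block, 411 (374 and 37) at a mean of at least 100 CPM, 1719 (792 and 927) without the libraries under 12000 detected genes and 38 (38 and 0) from the 6 libraries alone. Leaving out 1 library gave 27 to 533 calls (24 to 178 higher and 2 to 355 lower). Without ABX ICH day 7 replicates 1 and 3 in turn there were 81 and 533 calls, and without ABX sham replicates 1, 2 and 3 there were 27, 37 and 27. The cause of these shifts was not tested. Fewer samples were in the fits that left out a library. The fit without the libraries under 12000 detected genes holds 1 ABX ICH day 7 library, so its counts are not a check on detected genes.

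The difference in response between ABX and SPF mice had 0 calls, and 1935 with DESeq2, 12 with voom, 660 without the libraries under 12000 detected genes and 0 to 4 without 1 library. The difference between ABX and GF mice had 754 calls, and 4485 with DESeq2, 17 with voom, 412 with the replicate block, 187 at a mean of at least 100 CPM and 138 to 1208 without 1 library. That difference could not be fitted without the libraries under 12000 detected genes, since no GF ICH day 7 library is left. The difference in GC trend was −0.96 over abundant genes and −0.58 over all tested genes. Same-numbered libraries of the groups deviated from their group means with correlations of 0.02, −0.01 and −0.00. ABX ICH day 7 replicate 1 correlated best with its own number, and replicate 2 did not. Correlations this small cannot show whether the numbers pair the libraries.

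Some named genes that were not called changed sign. Cst3 was at 0.65 with GC offsets and −0.36 to 0.16 without 1 library, Eno1 at −0.51 with voom and −0.17 to 0.82 without 1 library, and, without the libraries under 12000 detected genes, Sqstm1 at −0.997 and Hdac3 at −3.86, then a called fall (edgeR adjusted p = 0.00598), against 3.17 in all libraries. P2ry12 was at −0.44 with voom, −0.49 with GC offsets, −0.60 without the libraries under 12000 detected genes, −0.0315 from the 6 libraries alone and −0.43 to 0.35 without 1 library. Without 1 library Il1b was at −0.94 to 9.44 and Sqstm1 at −0.14 to 1.25. Of 50 named calls, 18 held in all 6 fits that left out a library, 11 in every alternative and 0 reversed. The precision is limited by 3 libraries a side.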

Other observations

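Genes outside the lists rose as well (0.734% of all tested genes rose), and those below were chosen after their values were seen. Lyz2, lysozyme of macrophages, was at 9948, 5847 and 9271 CPM in ABX ICH day 7, against 642, 598 and 379.6 CPM in ABX sham (log2 fold change 3.95 ± 0.41, edgeR adjusted p = 8e-06). Plek, pleckstrin, was at 2082, 1645 and 2699 CPM in ABX ICH day 7, against 217, 199.5 and 147 CPM in ABX sham (3.51 ± 0.48, edgeR adjusted p = 0.000256). Tmsb4x, an actin-binding peptide, was at 48160, 34899 and 31955 CPM in ABX ICH day 7, against 10680, 12648 and 11140 CPM in ABX sham (1.74 ± 0.23, edgeR adjusted p = 0.000215). Slfn2 and Irgm1, genes induced by interferons, rose by 3.63 ± 0.67 and 3.06 ± 0.68 on the log2 scale (edgeR adjusted p = 0.00606 and 0.027). Of 81 genes of cytosolic ribosomal proteins 12 rose and 0 fell, with a median of 1.62, beside 1.04 for all genes with a mean of at least 100 CPM. The translation factor Eef1a1 rose by 2.26 ± 0.42 (edgeR adjusted p = 0.00612). Many ribosomal protein genes have near copies, so their counts are less certain.

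Among the falls, Nfkb1, a subunit of NF-kappaB, was at 0.284, 0.108 and 2.55 CPM in ABX ICH day 7, against 93.8, 54.9 and 94.7 CPM in ABX sham (−6.37 ± 1.41, edgeR adjusted p = 0.0267). Tnfrsf1b, TNF receptor 2, was at 0.996, 0.415 and 4.33 CPM in ABX ICH day 7, against 57.7, 84.2 and 72 CPM in ABX sham (−5.22 ± 1.27, edgeR adjusted p = 0.0474). The largest fitted rise, Chaf1b, a chromatin assembly subunit, rests on 1 library, with 0.284, 0.126 and 152 CPM in ABX ICH day 7 and 0 in all ABX sham libraries (edgeR adjusted p = 0.0474).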
